A study of Mus musculus with 22 samples.

Results

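The proteasome subunit genes of the mouse were examined in the dentate gyrus after kainic acid (KA) seizures, in mice with and without the transcription factor serum response factor (SRF). Members were all genes on the array whose annotated symbol begins with Psm, a letter from a to g and a digit, and each gene was read on its probe with the highest mean signal over the 22 arrays. The rule gave 51 of the 21946 genes with a symbol, read by 88 of the 46237 probes. It used no measured difference between groups. Of the 51 genes, 31 encode the subunits of the standard 26S particle (7 of the outer alpha ring, 7 of the inner beta ring, 6 ATPases and 11 non-ATPases of the 19S cap), 3 encode immunoproteasome subunits, 2 encode tissue-specific 20S subunits, 5 encode other activators or an inhibitor, and 7 encode assembly chaperones. The remaining 3, Psmc3ip, Psme2b and Psme3ip1, matched the symbol rule by name only.

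The proteasome is the large protease that degrades most short-lived and damaged cytosolic and nuclear proteins. Its 20S barrel is built of stacked alpha and beta rings, and the proteolytic sites lie inside, on the beta subunits encoded by Psmb5, Psmb6 and Psmb7. Substrates enter through an activator bound to the end of the barrel. In the 26S proteasome this is the 19S particle, in which a ring of ATPases unfolds ubiquitinated proteins and the non-ATPase subunits bind the ubiquitin chain and remove it, whereas the PA28 and PA200 activators open the barrel without ATP. In cells exposed to interferon, Psmb8, Psmb9 and Psmb10 replace the constitutive catalytic subunits and form the immunoproteasome, which supplies peptides for antigen presentation. In neurons, proteasomal degradation contributes to the remodelling of synapses with activity.

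The array data covered 4 groups of adult male mice. KO mice (Srf f/f;CaMKCreERT2) had carried a tamoxifen-inducible Cre recombinase driven by the CaMKIIα promoter, which is active in excitatory neurons of the forebrain, so other cells of the tissue retained Srf. CTR mice (Srf f/f) had the same floxed alleles without Cre, and both genotypes received tamoxifen. Animals were injected with KA at 35 to 50 mg/kg or with saline, and the microdissected dentate gyrus was taken 6 h after the KA-induced status epilepticus (continuous seizures) or 6 h after the saline injection, with 1 array per animal. The groups were KO mice given KA (KO KA, n = 5), KO mice given saline (KO saline, n = 6), CTR mice given KA (CTR KA, n = 5) and CTR mice given saline (CTR saline, n = 6). KA is a glutamate receptor agonist that induces seizures, and the dentate gyrus is dominated by granule cells.

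All values are log2 signals of Illumina bead arrays, and differences are between group means with the standard error (SE) of the limma fit on 4 groups. A member was called when its Benjamini-Hochberg adjusted p over all 46237 probes was under 0.05. Signals ran between 6.69 and 16.12 over the 22 arrays. The number of arrays limits the precision: the median SE of a member's KA difference was 0.11 log2 in each genotype. Srf itself averaged 11.23 ± 0.20 in KO KA, 11.41 ± 0.17 in KO saline, 12.06 ± 0.20 in CTR KA and 12.45 ± 0.12 in CTR saline (SD), and was lower in KO than in CTR mice after saline by 1.04 on the log2 scale (limma adjusted p = 1.3e-05) with no overlap between the groups. The groups did not overlap after KA either. This bears on the genotype labels of the log2 table and not on the treatment labels. In a second deposited table of the same arrays, 16 of 22 columns carried the name of another array, 14 of them from another group, and which naming is right could not be settled. Every group difference given here rests on the names in the log2 table. Of the granule cell markers, C1ql2, Prox1 and Dsp had mean signals of 14.91, 12.57 and 9.96, whereas Calb1 stayed at 7.31, below the median probe (7.88). On 6 arrays, at least 1 in each group (CTR saline 6, CTR KA 4 and 5, KO saline 5 and 6, KO KA 5), the deviations from the group means followed a shared component, and calls of members that changed without these arrays are given with and without them. The mean over 8 choroid plexus markers, a tissue that borders the hippocampus, ran from 9.24 to 13.03 on these 6 arrays and from 8.79 to 12.74 on the other 16, and its part in the results was not tested.

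The members covered the whole range of the arrays. The brightest were Psmb4 (mean signal 15.12) and Psma2 (15.03), a subunit of the beta ring and one of the alpha ring, and 18 of the 51 averaged over 13. At the low end, Psma1, Psma3, Psma6, Psma8, Psmb11, Psmd3 and Psmg4 lay below the median probe, so these probes hold little information on the gene. They include Psma8 and Psmb11, the subunits of testis and thymus, and also 4 genes of the standard particle. Within a group, the SD of a member ranged from 0.030 to 0.73 with a median of 0.16. The median was 0.17 in KO KA, 0.13 in KO saline, 0.24 in CTR KA and 0.14 in CTR saline.

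After KA, 13 genes of the standard proteasome rose in KO and 14 in CTR mice, the immunoproteasome genes Psmb9 and Psmb10 and the activator gene Psme1 fell in both, and Psmb8, the other immunoproteasome gene, passed in neither. In CTR mice the largest change of a member was that of Psme3, the gene of the nuclear activator PA28γ, and in KO mice that of Psmb2. In KO mice 15 of the 51 members rose (29.4%, against 8.21% of all genes) and 3 fell (5.88%, against 9.2% of all genes). In CTR mice 17 rose (33.3%, against 14.6% of all genes) and 5 fell (9.8%, against 15.1% of all genes). The shares that fell were below those of all genes, so that the falls are described gene by gene. With a change of more than 1.5-fold also required, 3 members rose and 2 fell in KO mice (4.2% and 4.24% of all genes), and 6 rose and 3 fell in CTR mice (8.88% and 8.48% of all genes). The counts depended on the scaling. After quantile normalization across all arrays, given below, 10 members rose in CTR mice, where 12.9% of all genes rose. The median difference over the members was 0.20 log2 in KO mice, with 38 of 51 positive, and 0.16 in CTR mice, with 32 of 51 positive, while the median over all genes was -0.00 in KO and -0.01 in CTR mice. In a bulk sample, fewer cells of a type and less RNA per cell cannot be told apart.

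**Figure D1:**
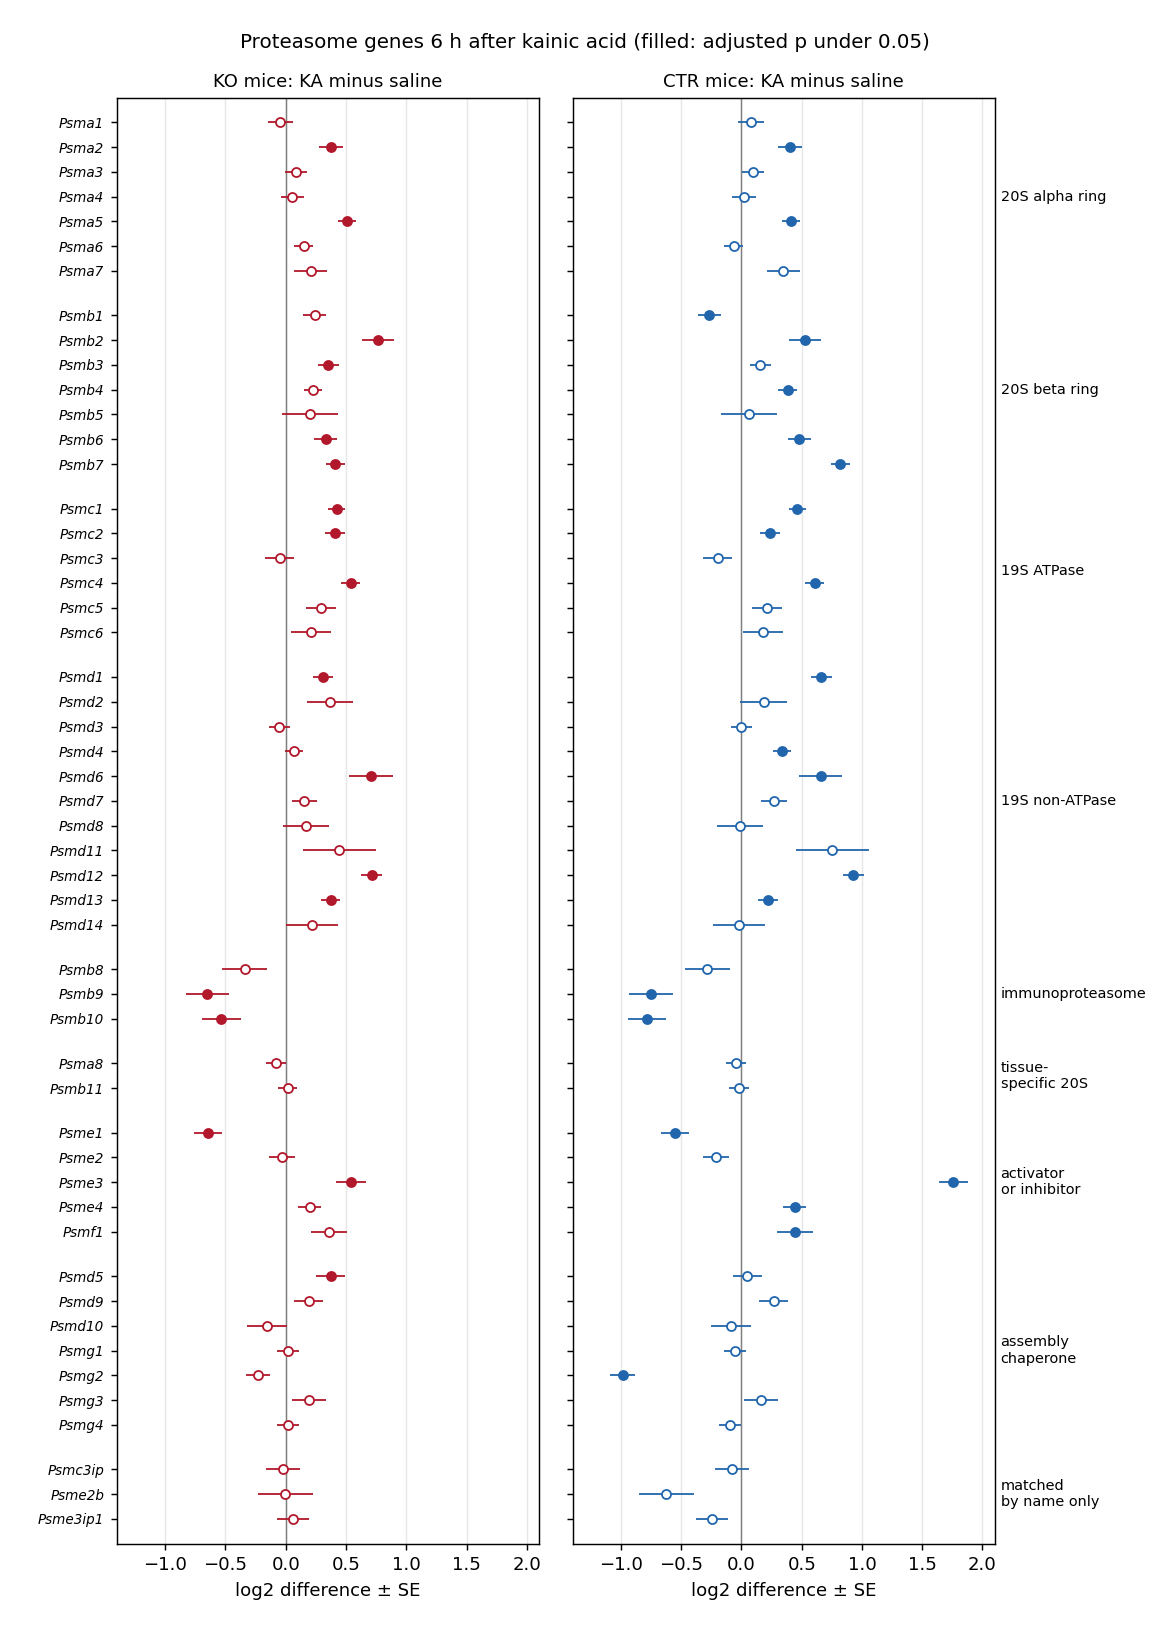
Log2 difference between KA and saline (x axis, ± SE) for each of the 51 members, in KO mice on the left and in CTR mice on the right, with filled points for adjusted p under 0.05. Genes of the 20S and 19S particles lie mostly right of 0 in both panels, the 3 immunoproteasome genes lie left of it, with Psmb8 not called, and Psme3 stands at 0.54 in KO and 1.76 in CTR mice.

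Most of the members that rose belong to the 31 genes of the standard 26S particle. Of these, 13 rose and none fell in KO mice, with a median difference of 0.30, and 14 rose and 1 fell in CTR mice, with a median of 0.24. At an unadjusted limma p under 0.05, 16 rose and 0 fell in KO mice (2952 and 3349 of all 21946 genes). In CTR mice 17 rose and 1 fell at that limit (3996 and 4171 of all genes). Bright probes are called more often. Among the 1366 genes with a mean signal over 13, 19% rose in KO mice and 27.9% in CTR mice, against 10 and 11 of the 18 members at that level. The median difference of those 1366 genes was 0.01 in both genotypes, and that of the 18 members was 0.32 in KO and 0.34 in CTR mice. The KO KA and KO saline arrays did not overlap, with KA above, in 12 members (7.29% of all genes behaved so), and the CTR KA and CTR saline arrays in 10 members (9.06% of all genes).

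Most members that rose did so in both genotypes, which have no arrays in common. In all, 13 members rose in both, which is 86.7% of those that rose in KO and 76.5% of those that rose in CTR mice. The matching share over all genes was not counted, so these shares cannot be set against a background. They were the alpha subunits Psma2 and Psma5, the beta subunits Psmb2, Psmb6 and Psmb7, the ATPases Psmc1, Psmc2 and Psmc4, the non-ATPases Psmd1, Psmd6, Psmd12 and Psmd13, and the activator Psme3. Psmb3 (0.35, adjusted p = 0.007) and the chaperone Psmd5 (0.37, adjusted p = 0.039) passed the limma test only in KO mice, and Psmb4, Psmd4, Psme4 and Psmf1 only in CTR mice. For none of these 6 was the response shown to differ between genotypes (limma interaction, adjusted p from 0.22 to 0.92) over all arrays. Without the 6 arrays that stand apart, the interaction of Psmd4 was called (-0.36, adjusted p = 0.031). Without them Psmb3 also rose in CTR mice (0.22, adjusted p = 0.02), Psmd5 did not pass in KO mice (0.32, adjusted p = 0.11), and Psmc2 did not pass in CTR mice (0.16, adjusted p = 0.30). Psmd2 (0.44, adjusted p = 0.01) and Psmd7 (0.39, adjusted p = 0.019) then rose and Psme2b (-0.58, adjusted p = 0.0069) fell in CTR mice.

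In the alpha ring, which gates the barrel, 2 of 7 genes rose in each genotype. Of all genes, 8.21% rose in KO and 14.6% in CTR mice, and of those with a mean signal over 13, 19% and 27.9%. The ring is therefore described gene by gene. Psma5 was at 14.93, 14.73, 14.90, 14.70 and 15.10 in KO KA, against 14.28 to 14.54 (median 14.35) in KO saline. The CTR KA arrays gave 14.69, 14.91, 14.89, 14.99 and 14.78, against 14.37 to 14.57 (median 14.44) in CTR saline. No KA array overlapped the saline arrays of its genotype, and the difference was 0.50 in KO (1.42-fold, adjusted p = 4.1e-05) and 0.41 in CTR mice (1.33-fold, adjusted p = 0.00017). Psma2, named with Psma5 after their values were seen, as are the other genes outside the naming rule, rose by 0.37 and 0.41. Psma4 and Psma7, the other 2 alpha genes above the low end, did not pass the limma test in KO (0.06 and 0.21) or CTR mice (0.02 and 0.35). A second probe of Psma7, at a mean signal of 12.97 against 13.04, did not pass in KO mice (0.33, adjusted p = 0.053) and rose in CTR mice (0.42, adjusted p = 0.0061).

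In the beta ring, 4 of 7 genes rose in each genotype. Psmb7, which encodes the trypsin-like β2 subunit, was at 14.52, 14.40, 14.32, 14.14 and 14.44 in KO KA, against 13.83 to 14.11 (median 13.94) in KO saline. In CTR mice it was at 14.83, 14.83, 14.76, 14.80 and 14.56 after KA, against 13.70 to 14.08 (median 13.96) after saline. The KA arrays lay above the saline arrays in both genotypes, and the means differed by 0.41 in KO (1.33-fold, adjusted p = 0.00071) and by 0.82 in CTR mice (1.77-fold, adjusted p = 2.6e-08). Psmb6, the caspase-like β1 subunit, had a smaller response, at 13.91, 13.97, 14.12, 13.71 and 13.96 in KO KA against 13.38 to 13.82 (median 13.58) in KO saline. In CTR mice the arrays after KA gave 14.20, 14.09, 14.05, 13.81 and 14.11, against 13.39 to 13.71 (median 13.58) in CTR saline. The groups overlapped in KO mice, where Psmb6 rose by 0.33 (adjusted p = 0.018), and not in CTR mice, where it rose by 0.48 (adjusted p = 0.00032).

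Psmb5, the chymotrypsin-like β5 subunit that most proteasome inhibitors target, did not pass the test in either genotype. It was at 12.64, 12.45, 12.80, 12.48 and 11.93 in KO KA, against 11.75 to 12.65 (median 12.36) in KO saline, and at 13.20, 12.59, 12.57, 12.16 and 11.70 in CTR KA, against 11.57 to 12.67 (median 12.51) in CTR saline. All groups overlapped and its spread was among the wider ones (SD 0.33 to 0.56). The difference was 0.20 in KO (95% interval -0.28 to 0.69, adjusted p = 0.72) and 0.06 in CTR mice (-0.42 to 0.54, adjusted p = 0.92). These intervals include the rises of Psmb6 in both genotypes and of Psmb7 in KO mice, so a rise of that size could have been missed. Psmb5 was lowest in each group on the arrays that stand apart, and without those 6 arrays its differences were 0.10 in KO (adjusted p = 0.74) and 0.24 in CTR mice (adjusted p = 0.22).

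Psmb2, the β4 subunit, had the largest rise of the standard particle in KO mice. It was at 14.65, 14.65, 14.63, 14.49 and 15.08 in KO KA, against 13.86 to 14.05 (median 13.92) in KO saline, with no overlap (0.76, 1.70-fold, adjusted p = 0.00028). In CTR mice it was at 14.72, 13.87, 14.39, 14.18 and 14.96 after KA, against 13.83 to 14.04 (median 13.88) after saline, and 1 CTR KA array fell among the saline arrays (0.53, 1.44-fold, adjusted p = 0.0044). A second bright probe of Psmb2 gave 0.81 in KO and 0.56 in CTR mice. Psmb1, the β6 subunit, was the one gene of the standard particle that fell in CTR mice. It was at 13.47, 13.36, 13.45, 13.49 and 13.49 in KO KA, against 13.09 to 13.41 (median 13.18) in KO saline. CTR KA arrays had 13.30, 13.22, 13.10, 12.99 and 12.86, against 12.96 to 13.64 (median 13.40) in CTR saline. KA and saline arrays overlapped in both genotypes, and the differences were 0.24 in KO (adjusted p = 0.12) and -0.27 in CTR mice (adjusted p = 0.047), or -0.23 in CTR mice (adjusted p = 0.051) without the 6 arrays that stand apart.

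In the ATPase ring of the 19S particle, Psmc1, Psmc2 and Psmc4 rose in both genotypes and the other 3 did not pass the test in either. Psmc4 (Rpt3) was at 14.03, 13.92, 14.22, 14.04 and 14.28 in KO KA, against 13.46 to 13.71 (median 13.56) in KO saline. Among CTR KA arrays the values were 14.35, 14.13, 14.32, 14.04 and 14.24, against 13.46 to 13.73 (median 13.64) in CTR saline. The groups did not overlap, and the rise was 0.54 in KO (1.45-fold, adjusted p = 2.4e-05) and 0.61 in CTR mice (1.52-fold, adjusted p = 1.4e-06). Psmc1 rose by 0.42 in KO and 0.46 in CTR mice and Psmc2 by 0.41 and 0.24. Psmc3, Psmc5 and Psmc6 had differences of -0.05, 0.30 and 0.21 in KO and -0.20, 0.21 and 0.18 in CTR mice.

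Of the 11 non-ATPase genes, which form the base scaffold and the lid that binds ubiquitin chains, 4 rose in KO and 5 in CTR mice. Psmd12, the lid subunit Rpn5, was at 12.81, 12.87, 13.06, 12.65 and 12.97 in KO KA, against 12.03 to 12.37 (median 12.14) in KO saline. For CTR KA the values were 13.41, 12.97, 13.20, 13.24 and 13.04, against 12.15 to 12.36 (median 12.22) in CTR saline. KA and saline arrays were separate in both genotypes, and the means differed by 0.71 in KO (1.64-fold, adjusted p = 2.9e-06) and by 0.93 in CTR mice (1.90-fold, adjusted p = 1.5e-08). After Psme3, this was the largest rise of a member in CTR mice.

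Psmd1, the scaffold subunit Rpn2, was at 14.94, 14.81, 15.13, 14.66 and 15.05 in KO KA, against 14.40 to 14.85 (median 14.62) in KO saline. The CTR KA arrays gave 15.23, 15.27, 15.12, 15.45 and 15.24, against 14.47 to 14.67 (median 14.63) in CTR saline. KA and saline overlapped in KO mice (0.31, adjusted p = 0.017) but not in CTR mice (0.66, 1.58-fold, adjusted p = 2.1e-06). Psmd6, the lid subunit Rpn7, was dimmer and more variable, at 10.65, 10.76, 10.78, 10.12 and 10.46 in KO KA against 9.48 to 10.09 (median 9.93) in KO saline, and at 10.69, 10.46, 10.63, 11.44 and 10.23 in CTR KA against 9.48 to 10.45 (median 10.06) in CTR saline. The groups were separate in KO and overlapped in CTR mice, and the rise was 0.71 (adjusted p = 0.0092) and 0.66 (adjusted p = 0.0083). Psmd13 rose by 0.37 in KO and 0.22 in CTR mice. Psmd4, the ubiquitin receptor Rpn10, rose in CTR mice (0.34, adjusted p = 0.0017) and stood at 0.07 in KO mice (adjusted p = 0.70).

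Psmd11, the lid subunit Rpn6, gave different calls on its probes. On the brightest probe its differences were 0.44 in KO (adjusted p = 0.45) and 0.75 in CTR mice (adjusted p = 0.079), with an SD of up to 0.73 within a group, and it was lowest in each group on the arrays that stand apart. Without those 6 arrays it rose by 0.32 in KO (adjusted p = 0.036) and by 1.03 in CTR mice (adjusted p = 6.1e-07). On this probe it was then lower in KO KA than in CTR KA (-0.76, adjusted p = 0.00014), with an interaction of -0.70 (adjusted p = 0.0067). A second, dimmer probe (mean signal 9.93) rose over all 22 arrays by 0.50 in KO (adjusted p = 0.018) and by 0.65 in CTR mice (adjusted p = 0.0011), and its interaction was -0.15 (adjusted p = 0.82), so that a genotype difference in Psmd11 was not shown. The second probe of Psmd6 had differences of 0.50 in KO (adjusted p = 0.072) and 0.44 in CTR mice (adjusted p = 0.085). A second probe of Psmd7 (mean signal 12.04) rose over all 22 arrays in CTR mice (0.73, adjusted p = 0.00018) and not in KO mice (0.19, adjusted p = 0.46). On it KO KA was below CTR KA (-0.57, adjusted p = 0.0096), with an interaction of -0.54 (adjusted p = 0.13). The brightest probe of Psmd7 gave 0.27 in CTR mice (adjusted p = 0.073) and -0.05 between KO KA and CTR KA (adjusted p = 0.87). Over the 22 members with several probes above the low end, only some of the probes were called for 7 members in KO and 9 in CTR mice. The same held for 5 members between KO KA and CTR KA. None of the 22 had calls in opposite directions in a comparison.

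Promoters of 2 of these genes are shown because they hold the antioxidant response element core TGACNNNGC, the motif bound by the NRF1 and NRF2 family, of which NRF1 (Nfe2l1) is known to drive proteasome genes when proteasome activity is low. The sequences span 250 bases before to 50 after the gene's start, from RefSeq on GRCm38.p6, with the match in capitals. The match begins at position -9 from the start of Psmb6 (chr11:70525107-70525406, plus strand) and, on the opposite strand, at position -247 from that of Psmd12 (chr11:107479278-107479577, plus strand).
Psmb6: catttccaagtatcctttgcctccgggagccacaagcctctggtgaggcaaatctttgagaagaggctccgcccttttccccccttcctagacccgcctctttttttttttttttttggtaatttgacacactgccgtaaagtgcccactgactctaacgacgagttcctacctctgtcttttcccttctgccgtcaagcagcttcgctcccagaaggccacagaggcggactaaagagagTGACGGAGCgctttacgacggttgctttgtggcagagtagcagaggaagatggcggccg
Psmd12: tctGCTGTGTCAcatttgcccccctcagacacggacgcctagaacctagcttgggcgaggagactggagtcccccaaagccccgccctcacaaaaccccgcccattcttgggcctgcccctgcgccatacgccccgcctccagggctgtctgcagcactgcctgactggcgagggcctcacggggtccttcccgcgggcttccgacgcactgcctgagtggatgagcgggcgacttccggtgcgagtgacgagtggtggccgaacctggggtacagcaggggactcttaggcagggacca
A promoter was at hand for 43 of the 51 members, and both strands were searched. The core was found in 6 of the 43 (Psmb5, Psmb6, Psmc6, Psmd12, Psmd9 and Psme4), a share near the 12.4% of 32851 promoters of all genes. Of those 6, Psmb6 and Psmd12, the 2 shown, rose in both genotypes and Psme4 rose in CTR mice. Psmb5, Psmc6 and Psmd9 did not pass the test in either. A part of NRF1 or NRF2 in these changes was not tested. The AP-1 site TGANTCA was found in Psmb5 and Psmd9 (7.81% of all promoters), the CRE TGACGTCA in none of the 43 (1.79%), and the CArG box, the binding motif of SRF, in Psma6 alone (1.63%), where it overlapped a CCAAT box.

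The activators included the largest rise in CTR mice, that of Psme3, and a fall in both genotypes, that of Psme1. Psme3 (chr11:101316213-101323537, GRCm38.p6) encodes PA28γ, a nuclear activator that acts without ubiquitin, and it was read by 1 probe. It was at 13.16, 13.04, 13.12, 12.72 and 12.99 in KO KA, against 12.18 to 12.71 (median 12.47) in KO saline. In CTR mice the arrays after KA gave 14.45, 14.27, 13.91, 14.60 and 13.89, against 12.29 to 12.75 (median 12.44) in CTR saline. KA and saline arrays were separate in both genotypes, and every KO KA array was below every CTR KA array. The rise was 0.54 ± 0.12 in KO (SE, 1.46-fold, adjusted p = 0.003) and 1.76 ± 0.12 in CTR mice (3.38-fold, adjusted p = 1.4e-10).

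The promoter of Psme3 (chr11:101315963-101316262, plus strand, RefSeq on GRCm38.p6) is shown as that of the member with the largest change in response between genotypes. Its one match among the 6 motifs searched was a CCAAT box, the site of the trimeric factor NF-Y, read on the opposite strand as ATTGG and given in capitals, at position -14.
Psme3: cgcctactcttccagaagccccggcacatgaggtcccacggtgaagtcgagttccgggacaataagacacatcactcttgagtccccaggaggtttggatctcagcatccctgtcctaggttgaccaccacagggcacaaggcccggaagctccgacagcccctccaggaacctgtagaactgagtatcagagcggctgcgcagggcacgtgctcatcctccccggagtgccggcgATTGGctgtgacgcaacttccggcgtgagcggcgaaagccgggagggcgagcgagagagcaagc
CCAAT was found in 16 of the 43 members' promoters and in 37.4% of all promoters. No CArG box was in this window.

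Of the other activators, Psme4 (PA200) was at 12.06, 12.03, 12.14, 12.06 and 11.87 in KO KA, against 11.71 to 11.92 (median 11.86) in KO saline. CTR KA arrays had 12.41, 12.16, 12.04, 12.19 and 12.60, against 11.54 to 11.96 (median 11.89) in CTR saline. It rose in CTR mice with no overlap (0.44, adjusted p = 0.00071), and the difference in KO mice was 0.20 (adjusted p = 0.20). Psmf1, the inhibitor PI31, was at 12.04, 11.87, 12.29, 12.02 and 12.52 in KO KA, against 11.68 to 11.98 (median 11.74) in KO saline, and at 12.64, 11.60, 12.25, 11.76 and 12.57 in CTR KA, against 11.58 to 11.84 (median 11.72) in CTR saline. Its groups overlapped, and it passed the test in CTR (0.45, adjusted p = 0.031) and not in KO mice (0.36, adjusted p = 0.13). The 2 dimmer probes of Psmf1 gave 0.03 and -0.12 in CTR mice, and 1 of them fell in KO mice by 0.25 (adjusted p = 0.02).

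PA28α and PA28β together form the interferon-inducible activator that accompanies the immunoproteasome, and their genes Psme1 (chr14:55578494-55581527) and Psme2 (chr14:55587440-55591101) lie next to each other. Psme1 was at 11.57, 11.78, 11.50, 12.09 and 11.47 in KO KA, against 12.15 to 12.58 (median 12.30) in KO saline. Among CTR KA arrays the values were 11.97, 11.52, 11.45, 11.61 and 11.94, against 12.09 to 12.45 (median 12.27) in CTR saline. The KA arrays lay below the saline arrays in both genotypes, and the means differed by -0.64 in KO (1.56-fold lower, adjusted p = 0.00038) and -0.55 in CTR mice (1.47-fold lower, adjusted p = 0.00071). A second, dimmer probe of Psme1 fell in KO (-0.63, adjusted p = 0.016) and did not pass in CTR mice (-0.31, adjusted p = 0.24). Psme2 was at 9.73, 9.42, 9.53, 9.76 and 9.41 in KO KA, against 9.23 to 9.84 (median 9.62) in KO saline, and at 9.42, 9.59, 9.09, 9.23 and 9.60 in CTR KA, against 9.46 to 9.73 (median 9.59) in CTR saline. All groups overlapped, with differences of -0.03 in KO (95% interval -0.26 to 0.20) and -0.21 in CTR mice (-0.44 to 0.02).

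Of the 3 immunoproteasome genes, Psmb9 and Psmb10 fell in both genotypes. Psmb10 (β2i, chr8:105935728-105938392) was at 11.11, 11.43, 11.29, 11.56 and 11.33 in KO KA, against 11.80 to 11.96 (median 11.88) in KO saline. For CTR KA the values were 11.25, 10.95, 11.26, 10.19 and 11.68, against 11.67 to 12.03 (median 11.87) in CTR saline. The groups were separate in KO mice, as with 7.18% of all genes that lay lower after KA, and touched in CTR mice, where 8.55% of all genes were separate. The fall was -0.53 in KO (1.45-fold lower, adjusted p = 0.027) and -0.78 in CTR mice (1.72-fold lower, adjusted p = 0.00056), and a second probe fell by 0.59 and 0.60.

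Psmb9 (β1i, chr17:34182030-34187330) was at 8.68, 8.54, 8.45, 9.11 and 8.13 in KO KA, against 8.70 to 9.81 (median 9.21) in KO saline. The CTR KA arrays gave 8.54, 8.54, 8.55, 8.34 and 8.17, against 8.71 to 9.57 (median 9.19) in CTR saline. It fell with overlap in KO (-0.65, adjusted p = 0.015) and without overlap in CTR mice (-0.75, adjusted p = 0.0025). Its neighbour Psmb8 (β5i, chr17:34198195-34201454) was at 9.39, 9.46, 9.24, 9.94 and 9.23 in KO KA, against 9.30 to 10.47 (median 9.78) in KO saline, and at 9.15, 9.86, 9.51, 9.38 and 9.69 in CTR KA, against 9.45 to 10.32 (median 9.78) in CTR saline. Its groups overlapped, and neither difference passed the test (KO -0.34, 95% interval -0.73 to 0.05, adjusted p = 0.30, and CTR -0.28, -0.67 to 0.10, adjusted p = 0.36).

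**Figure D2:**
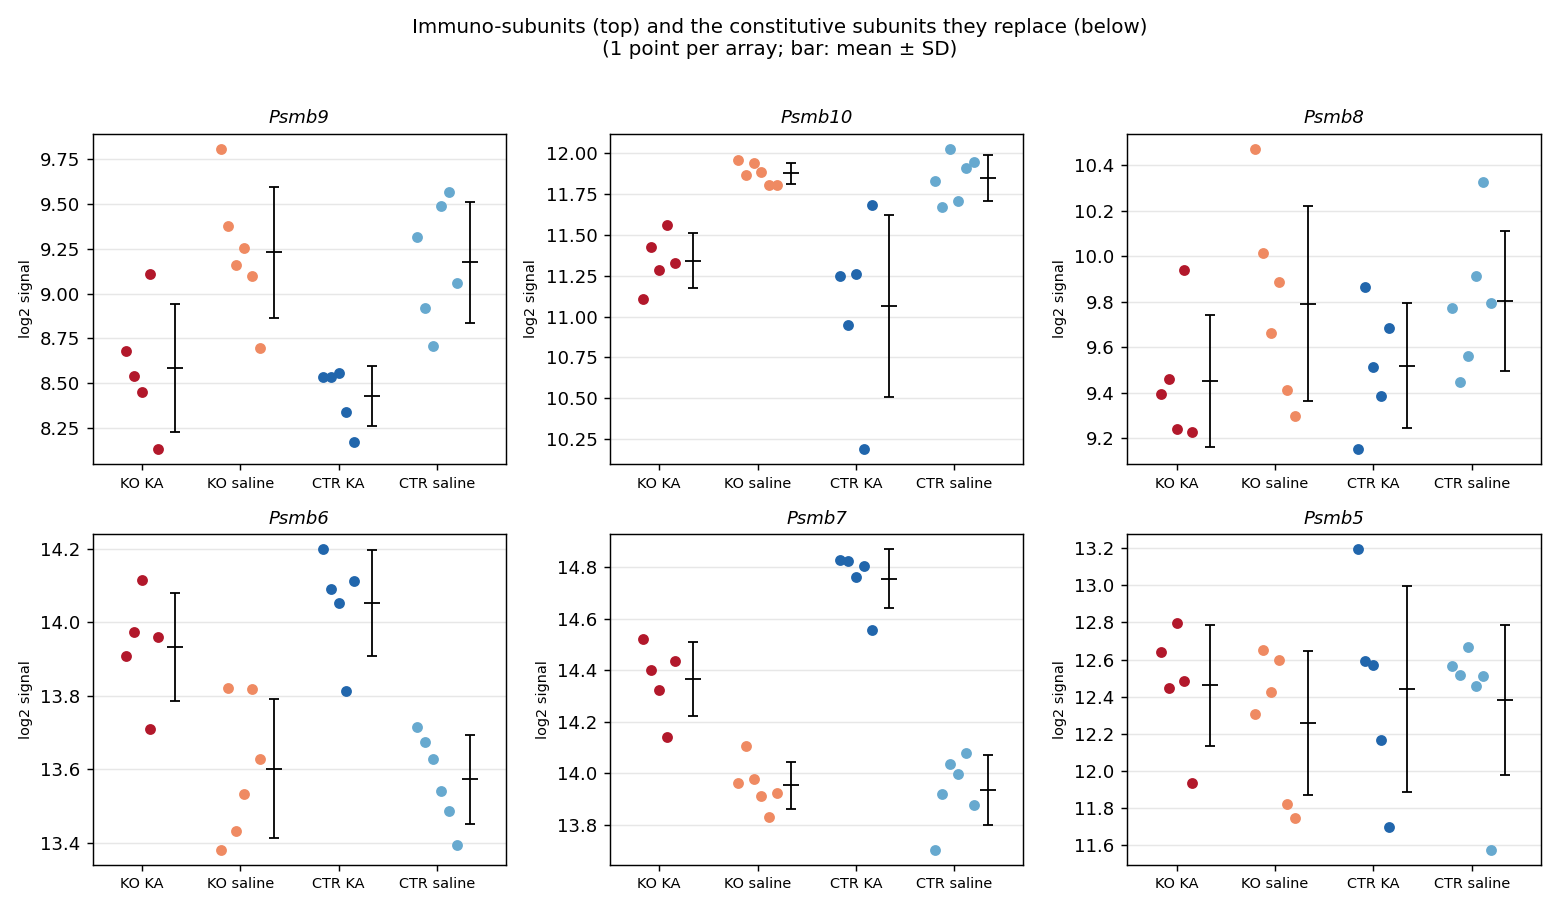
Log2 signal (y axis) of the immuno-subunit genes Psmb9, Psmb10 and Psmb8 in the top row and of Psmb6, Psmb7 and Psmb5, whose products they replace, in the lower row, with 1 point per array and the mean ± SD beside it, in KO KA, KO saline, CTR KA and CTR saline. Psmb9 and Psmb10 are lower after KA and Psmb6 and Psmb7 higher in both genotypes, while Psmb8 and Psmb5 overlap between all groups.

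The promoters of 2 genes that fell and held a match are given beside those that rose. The promoter of Psmb10, which also fell in both genotypes, held none of the motifs searched and is not shown. Psme1 (chr14:55578244-55578543, plus strand) holds an interferon-stimulated response element, GAAANNGAAA, on the opposite strand at position 10 after the start, and Psmb9 (chr17:34187281-34187580, minus strand) a CCAAT box on the opposite strand at position -8, both in capitals.
Psme1: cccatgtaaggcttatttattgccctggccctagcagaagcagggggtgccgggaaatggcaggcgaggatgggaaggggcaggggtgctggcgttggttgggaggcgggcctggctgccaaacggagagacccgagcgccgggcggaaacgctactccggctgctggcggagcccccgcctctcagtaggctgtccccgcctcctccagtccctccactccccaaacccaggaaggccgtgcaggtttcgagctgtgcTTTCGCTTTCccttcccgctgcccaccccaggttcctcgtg
Psmb9: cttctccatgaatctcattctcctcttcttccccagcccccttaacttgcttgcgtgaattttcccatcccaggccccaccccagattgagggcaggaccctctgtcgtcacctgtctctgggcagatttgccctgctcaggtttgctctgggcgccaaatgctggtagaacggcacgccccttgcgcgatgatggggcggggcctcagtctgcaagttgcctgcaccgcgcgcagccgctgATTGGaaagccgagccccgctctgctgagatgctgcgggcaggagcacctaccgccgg
The interferon element was found in 5 of the 43 promoters, against 3.44% of all promoters. The other 4 were those of Psmb3, which rose in KO mice, Psmd4, which rose in CTR mice, and Psmd9 and Psmg4, which passed in neither.

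Psmb8, Psmb9 and Psmb10 are known as genes of immune cells and of interferon signalling, so that markers of microglia and genes of antigen presentation were read beside them. Of 11 microglial markers with a value, 1 fell in KO mice, P2ry12 (-0.83, adjusted p = 0.00074). In CTR mice 3 fell, P2ry12 (-1.46, adjusted p = 1.5e-07), Aif1 (-0.72, adjusted p = 7e-04) and Cx3cr1 (-0.71, adjusted p = 0.00055), and 2 rose, Cd68 (1.03, adjusted p = 3.9e-07) and C1qb (0.67, adjusted p = 4e-04). The mean over the 11 markers reached 10.30 in KO KA, 10.41 in KO saline, 10.33 in CTR KA and 10.52 in CTR saline, and its medians were 10.15 in KO KA, 10.26 in KO saline, 10.23 in CTR KA and 10.24 in CTR saline. All groups overlapped. Of 9 antigen presentation genes with a value, none passed in KO mice (0 in each direction), where all 9 differences were negative. In CTR mice Tap2, a peptide transporter subunit (-0.69, adjusted p = 0.015), and Irf1, an interferon-responsive transcription factor (-0.54, adjusted p = 0.023), fell and the 7 others did not pass. The part of microglia in the fall of Psmb9, Psmb10 and Psme1 was not tested.

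Among the 7 assembly chaperones, which build the rings and then leave the finished particle, Psmg2 stood out. Its product, PAC2, pairs with PAC1, the product of Psmg1, to assemble the alpha ring. Psmg2 was at 10.95, 10.87, 10.96, 11.03 and 11.03 in KO KA, against 11.09 to 11.33 (median 11.20) in KO saline. In CTR mice the arrays after KA gave 10.40, 9.99, 10.54, 9.90 and 10.20, against 11.003 to 11.47 (median 11.16) in CTR saline. The KA arrays were below the saline arrays in both genotypes, and every KO KA array was above every CTR KA array. The difference was -0.23 in KO (1.17-fold lower, adjusted p = 0.17) and -0.98 ± 0.10 in CTR mice (SE, 1.98-fold lower, adjusted p = 7.2e-08). The 2 other probes of Psmg2 fell by 0.76 and 1.02 in CTR mice (adjusted p = 0.00035 and adjusted p = 0.0012) and had differences of -0.19 and -0.18 in KO mice. Psmg1, the partner gene, had differences of 0.02 in KO and -0.05 in CTR mice.

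The other chaperones changed less. Psmd5, which holds the ATPase Rpt1 during assembly of the base, rose in KO mice (0.37, adjusted p = 0.039) and was at 0.05 in CTR mice. Psmd9, Psmd10, Psmg3 and Psmg4 did not pass the test, with differences between -0.16 and 0.19 in KO and between -0.09 and 0.27 in CTR mice. Nor did the 3 genes matched by name: Psme2b, a PA28β-like gene, was at -0.62 in CTR mice (adjusted p = 0.051) and at -0.00 in KO mice, and Psmc3ip and Psme3ip1 lay between -0.24 and 0.06.

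Without seizures, the members could not be told apart by genotype at this precision. After saline, no member passed the test between KO and CTR mice in either direction (0% of all genes were higher and 0.00456%, which is Srf, lower), none reached an unadjusted p under 0.05 in the limma fit, and none was called by the analysis of variance without moderation. The 51 differences ran from -0.22 to 0.18 with a median of 0.00. The groups of no member were separate (0.123% of all genes had KO above and 0.1% KO below). The 95% intervals of the single members reached as far as -0.68 and 0.53, so that small differences were not measurable in every member.

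After KA, 2 members were higher in KO than in CTR mice (3.92%, against 6.04% of all genes) and 4 were lower (7.84%, against 6.64% of all genes), shares near those of all genes, so that what follows concerns single genes. Psmg2 (0.76 ± 0.11, SE, adjusted p = 2.9e-05) and Psmb1 (0.36 ± 0.10, adjusted p = 0.021) were higher. Psme3 (-1.22 ± 0.13, adjusted p = 7.1e-07), Psmb7 on its brightest probe only (-0.39 ± 0.08, adjusted p = 0.0025), Psmd1 (-0.35 ± 0.09, adjusted p = 0.014) and Psmd12 (-0.30 ± 0.09, adjusted p = 0.033) were lower. KO KA and CTR KA arrays did not overlap for Psmg2 and Psmb1, with KO above (2.81% of all genes), and for Psme3 and Psmb7, with KO below (3.42% of all genes), while those of Psmd1 and Psmd12 overlapped. Psmg2 was also more than 1.5-fold higher (2.62% of all genes) and Psme3 more than 1.5-fold lower (3.74% of all genes).

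**Figure D3:**
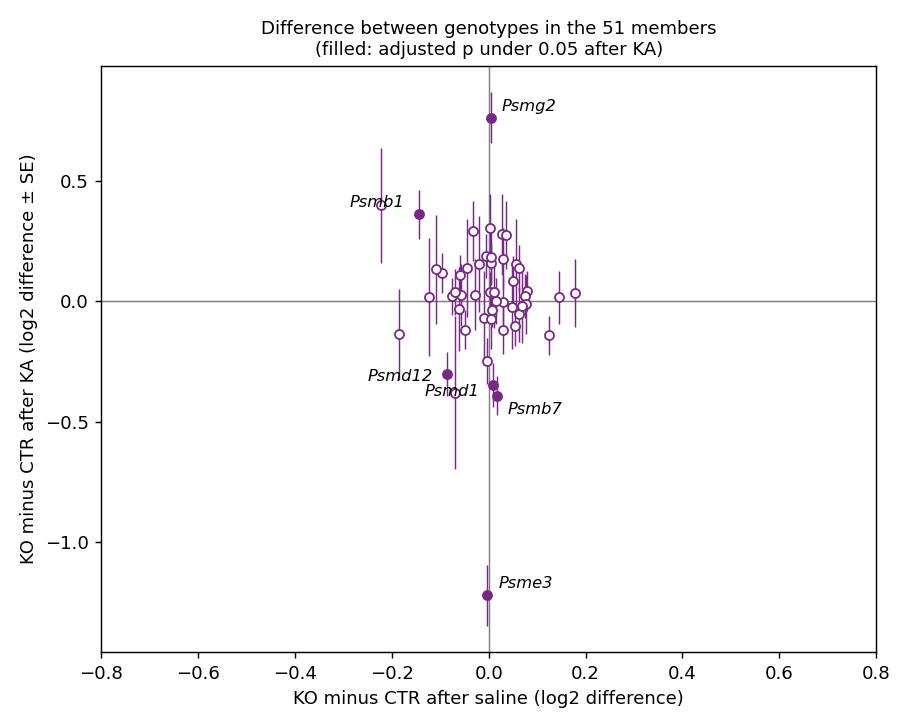
Difference between KO and CTR mice after KA (y axis, log2 ± SE) against the same difference after saline (x axis, log2) for the 51 members, with filled points for adjusted p under 0.05 after KA. The points spread little along the x axis (-0.22 to 0.18), and Psme3 (-1.22) and Psmg2 (0.76) stand farthest from 0 along the y axis.

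Whether the response to KA itself differed between genotypes was tested as the interaction, the KA difference in KO minus that in CTR mice. It was positive for 2 members (3.92%, against 2.6% of all genes) and negative for 2 (3.92%, against 3.24%), and at an adjusted p under 0.01 it was positive for Psmg2 (1.22% of all genes) and negative for Psme3 (1.71% of all genes). The response of Psme3 was smaller in KO mice by -1.22 ± 0.17 (SE, adjusted p = 0.00012). Psmg2 fell less in KO mice (0.76 ± 0.14, adjusted p = 0.0023). These calls of Psme3 and Psmg2 held on leaving out each array in turn, and the 2 other probes of Psmg2 gave interactions of 0.57 (adjusted p = 0.15) and 0.84 (adjusted p = 0.17).

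The other 2 calls were less firm. The rise of Psmb7 was smaller in KO mice on its brightest probe (-0.41 ± 0.11, adjusted p = 0.036), but the 3 other probes gave -0.12, -0.25 and 0.01 and none passed, and the call held only without 1 of CTR saline 3, 4 or 5, CTR KA 5, KO saline 4, 5 or 6 or KO KA 1 or 5, each of the other 13 arrays ending it when left out (adjusted p up to 0.078). Psmb1 had differences of opposite sign in the 2 genotypes (interaction 0.51 ± 0.14, adjusted p = 0.033), with 1 probe, and leaving out CTR saline 1, 2, 3 or 5, CTR KA 4 or 5, KO saline 1, 3, 5 or 6 or KO KA 1 or 4 ended the call (adjusted p up to 0.06). Its fall in CTR mice was lost on leaving out 17 of the 22 arrays, all but CTR saline 6, CTR KA 1 and 2 and KO saline 4 and 5 (adjusted p up to 0.15), and its difference between KO KA and CTR KA on leaving out CTR KA 4 or 5 (adjusted p up to 0.063). Between KO KA and CTR KA, the 3 other probes of Psmb7 gave -0.21, -0.18 and 0.04, and none passed. For Psmd12, the second probe differed by -0.01 between KO KA and CTR KA, and leaving out CTR KA 1, 3 or 4 or KO KA 1, 2 or 4 ended the call (adjusted p up to 0.11). For Psmd1 the second probe gave -0.35 (adjusted p = 0.027), and leaving out KO KA 4 ended the call (adjusted p = 0.053). Without the 6 arrays that stand apart, the difference between KO KA and CTR KA did not pass for Psmb1 (0.24, adjusted p = 0.10) and Psmd12 (adjusted p = 0.054), and the interactions were -1.22 for Psme3 (adjusted p = 0.00049), 0.64 for Psmg2 (adjusted p = 0.024), -0.50 for Psmb7 (adjusted p = 0.029) and 0.42 for Psmb1 (adjusted p = 0.045).

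**Figure D4:**
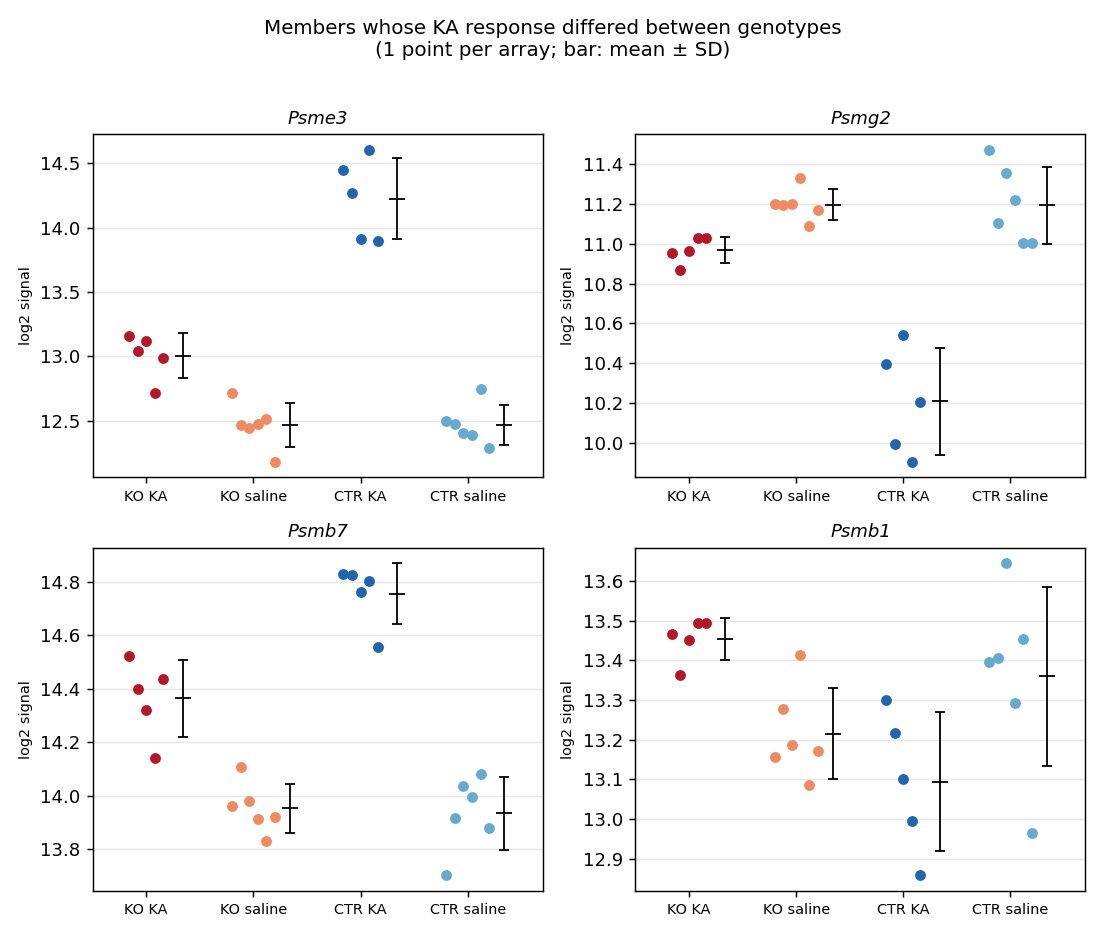
Log2 signal (y axis) of Psme3, Psmg2, Psmb7 and Psmb1, with 1 point per array and the mean ± SD beside it, in KO KA, KO saline, CTR KA and CTR saline. The saline groups of each gene overlap. The KO KA points of Psme3 (12.72 to 13.16) lie above those of KO saline and below those of CTR KA (13.89 to 14.60). The lowest of them is just below the highest CTR saline point (12.75).

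The size of the rise and the number of members called depended on how the arrays were scaled, more in CTR than in KO mice. The paper reports quantile normalization, but the deposited log2 values did not have the same distribution on all arrays. The brightest 2.5% of probes began at a signal of 13.72 to 13.93 on the CTR KA arrays and of 13.44 to 13.65 on the other arrays. Quantile normalization across all 22 arrays, chosen after the values were seen, removes this difference and shifted the median difference of the 1366 genes over 13 in CTR mice to -0.15, against 0.01 in the deposited values. With it, 11 members rose and 3 fell in KO mice (all among those called before), where 7.71% of all genes rose and 10.8% fell, and 10 rose and 8 fell in CTR mice, where 12.9% of all genes rose and 17.7% fell. The median over the members was 0.17 in KO and 0.02 in CTR mice, and that of the 18 bright members 0.25 in KO and 0.16 in CTR mice. Of those 18, 7 rose in KO and 5 in CTR mice, against 16.5% and 19.8% of the 1366 genes over 13. Of the 44 members above the median probe, 11 rose in KO and 10 in CTR mice, against 12.4% and 19.7% of all genes at that level. In CTR mice the members' share then lay near that of all genes above the median probe. Psma2, Psma5, Psmb2, Psmc2, Psmd4, Psmd13 and Psmf1 lost their call in CTR mice, and Psma2, Psmb6, Psmd1 and Psmd5 in KO mice, while Psmc3, Psme2b and Psme3ip1 were newly called lower in CTR mice. Psmb7 (-0.22), Psmd1 (-0.20) and Psmd12 (-0.24) did not pass between KO KA and CTR KA. Psme3 kept its rise in KO (0.51) and CTR mice (1.56) and its interaction (-1.05, limma adjusted p = 0.00036), and so did Psmg2 (interaction 0.80, adjusted p = 0.00061) and Psmb1 (0.59, adjusted p = 0.0041).

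**Figure D5:**
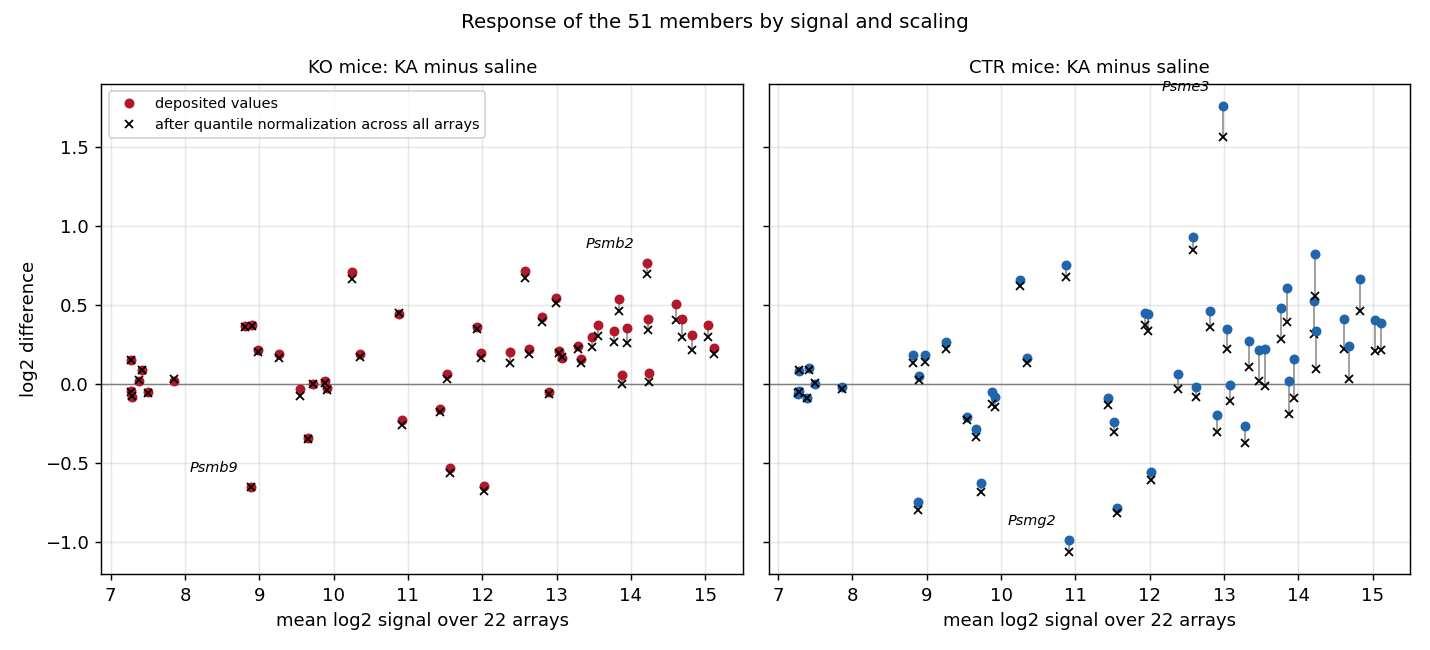
Log2 difference between KA and saline (y axis) against mean log2 signal over 22 arrays (x axis) for the 51 members in KO mice (left) and CTR mice (right), as deposited (dots) and after quantile normalization across all arrays (crosses), joined by lines. In CTR mice the bright members move down and the median of all members changes to 0.02, against 0.16 as deposited, whereas in KO mice it changes to 0.17, against 0.20.

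The genes that work with the proteasome were read from lists of names that include older symbols. Of the 8 proteasome partners with a value, Usp14, the deubiquitinase that trims chains on the 19S particle, rose in KO (0.49, adjusted p = 0.02) and CTR mice (0.40, adjusted p = 0.04). Zfand2a, an arsenite-inducible 19S partner, rose in CTR mice (0.51, adjusted p = 0.0041), and Ube3c, a ubiquitin ligase bound to the proteasome, fell there (-0.45, adjusted p = 0.00078). Ube3c was also higher in KO KA than in CTR KA (0.58, adjusted p = 0.00033, and interaction 0.66, adjusted p = 0.0045). Of 8 genes of shuttling and extraction, which bring substrates to the particle, Rad23b (0.53, adjusted p = 0.0017) and Ubqln1 (0.41, adjusted p = 0.017) rose in KO mice. Nploc4 (0.87, adjusted p = 5.7e-05), Rad23b (0.43, adjusted p = 0.0048) and Vcp (0.27, adjusted p = 0.0085) rose in CTR mice, and Nploc4 was lower in KO KA than in CTR KA (-0.79, adjusted p = 0.0011). The one ubiquitin or activating enzyme gene with a value, Uba6, did not pass (0.05 in KO and 0.24 in CTR mice).

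Of the 7 transcription factors and regulators known to act on proteasome and antioxidant genes, Nfe2l1 and Nfe2l2, which encode NRF1 and NRF2, did not pass the test in any comparison. Their small Maf partners and the repressor Bach1 did. In KO mice Bach1 rose by 0.91 (adjusted p = 0.001), Maff by 0.66 (adjusted p = 0.0064) and Mafg by 0.38 (adjusted p = 0.00038). In CTR mice Maff rose by 1.73 (adjusted p = 1.6e-08), Bach1 by 1.15 (adjusted p = 2.5e-05), Mafk by 0.75 (adjusted p = 1.5e-05) and Mafg by 0.61 (adjusted p = 2.4e-07), and Keap1, the inhibitor of NRF2, fell by 1.21 (adjusted p = 4.4e-06). Between the genotypes after KA, Maff (-1.04, adjusted p = 0.00016) and Mafk (-0.52, adjusted p = 0.0045) were lower and Keap1 higher (0.76, adjusted p = 0.005) in KO than in CTR mice, with interactions of -1.07 (adjusted p = 0.006), -0.63 (adjusted p = 0.022) and 0.86 (adjusted p = 0.037).

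Markers of the cell types in the tissue moved with KA as well. Of 5 granule cell markers with a value, none passed in KO mice, while in CTR mice Dsp (-3.03) and C1ql2 (-1.66) fell and Prox1 (1.33) and Tdo2 (0.93) rose. Of 8 astrocyte markers, 2 rose and 1 fell in KO mice and 2 rose in CTR mice, Gfap the most (0.88 in KO and 1.31 in CTR mice). Of 6 interneuron markers 1 rose in KO and 2 in CTR mice, and of 4 markers of CA pyramidal cells 2 rose in each genotype. Of 6 oligodendrocyte markers 1 fell in KO mice and none passed in CTR mice, of 6 endothelial markers none passed in KO mice and 1 rose and 3 fell in CTR mice, and of 8 choroid plexus markers none passed in either. The part of these cells in the changes of the proteasome genes was not tested.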

How the data were processed

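The authors hybridized dentate gyrus RNA to Illumina MouseWG-6 v2.0 arrays, 1 per animal. They report that, with the BeadArray package, they subtracted background, quantile-normalized and took log2. The deposited log2 values were used as given. Their sorted values differed between arrays (median gap 0.06 log2), so they were not quantile-normalized across all 22 arrays, which departs from the reported processing. A second deposited table of intensity values, named non-normalized by the authors, was already quantile-normalized, and 16 of its 22 column names matched another sample's log2 column, 14 of them in another group, so it entered no test and the names in the log2 table were used throughout, with the mismatch unresolved. Gene symbols came from the platform annotation, and 33385 of 35784 probes with 1 symbol were matched to the current gene table. Each gene was read on its probe with the highest mean signal.

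A model with 4 group means (18 residual degrees of freedom) was fitted to all 46237 probes with limma 3.58.1 in R 4.3.3, with empirical Bayes moderation and Benjamini-Hochberg adjustment over all probes, as contrasts of KA against saline in each genotype, KO against CTR after each treatment, and their interaction. All p-values are limma's adjusted p unless stated, and they set a difference between group means against the spread between animals within the groups. The scripts were tested on simulated data. Named are up to 5 called members with the largest difference in each direction and comparison, the catalytic, immuno- and activator subunits, Psmf1, and members with a called interaction; of each partner list, up to 3 called genes a direction. The members and lists were chosen with earlier results of these data known. Plots were drawn with matplotlib 3.10.9 in Python 3.11.15. Alternatives covered the probe rule, the samples fitted, array weights, the variance trend, stricter thresholds, a replicate block, the scaling, and each array left out.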

Additional observations from a re-analysis of the deposited data

Results flagged for a closer look

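Of 72 groups of arrays checked, 4 for each of 18 named members, 3 held an array whose gap to the nearest other array was large for the range of its group, and chance gives about 1 in 20 groups. Psmb2 was at 15.08 on KO KA array 5, with the nearest at 14.65. Psmb7 was at 14.56 on CTR KA array 5, with the nearest at 14.76. Psmb5 was at 11.57 on CTR saline array 6, with the nearest at 12.46. All 3 arrays are among the 6 that stand apart, and the part of what sets these arrays apart in the values was not tested.

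The response to KA differed between KO and CTR mice by limma's interaction for 4 members: Psme3 (-1.22), Psmg2 (0.76), Psmb1 (0.51) and Psmb7 (-0.41). Positive values mean a more positive response in KO mice.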

How the results depend on the processing

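No call of a named member or count changed direction under any alternative. No member was called between KO and CTR mice after saline under any of them. Averaging all probes of a gene left 1 negative interaction, fitting only the compared groups left 2 members lower in KO KA than in CTR KA, array weights left 1 higher, and a variance trend left 1 positive and 1 negative interaction. With a change of more than 1.5-fold (interaction at 0.01), 3 members rose in KO mice, 6 rose and 3 fell in CTR mice, 1 was higher and 1 lower in KO KA than in CTR KA, and 1 interaction was positive and 1 negative. Quantile normalization gave 10 that rose and 8 that fell in CTR mice, 5 higher and 1 lower in KO KA than in CTR KA, and 1 negative interaction. Normexp with quantile normalization gave 9 that rose in KO and 8 in CTR mice, 4 higher and 1 lower in KO KA than in CTR KA, and 1 negative interaction. Both, like cyclic loess and the omission of the 6 arrays, were chosen after the values were seen. Without the 6 arrays 1 member was higher in KO KA than in CTR KA and 4 interactions were negative. Leaving out each array in turn, 13 to 16 members rose and 1 to 3 fell in KO mice (1 without KO KA 5), 14 to 20 rose and 4 to 7 fell in CTR mice, 1 to 2 were higher (1 without CTR KA 4) and 2 to 4 lower (2 without KO KA 4) in KO KA than in CTR KA, and 1 to 2 interactions were positive and 1 to 2 negative. The call of Psmf1 in CTR mice was lost on leaving out CTR saline 2, 4 or 5 or CTR KA 1, 3 or 5 (limma adjusted p up to 0.12). In KO mice Psmb10 was lost without KO saline 1 or 3 or KO KA 1, 3 or 5 (adjusted p up to 0.086), Psmb6 without KO saline 1 or KO KA 3 (adjusted p up to 0.067), Psmd1 without KO KA 3 or 5 (adjusted p up to 0.069) and Psmb9 without KO KA 5 (adjusted p = 0.061). The causes were not tested.

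The labels do not say that a replicate number marks a shared litter or day, and pairing was taken only if the deviations of every same-numbered pair correlated over 0.1. This held for 11 of 21 pairs (range -0.18 to 0.37), among them all KO KA and CTR KA pairs except number 4, so that the numbers were not used as pairs, though some arrays of a number did deviate together. With the replicate block 1 negative interaction was left, with Psmb7 at adjusted p = 0.055. Not run were a fresh normalization of the second deposited table, which already was quantile-normalized, a filter on detection p-values and a block for the BeadChip, which the files used here do not give. Signal close to background limits the 7 members at the low end.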
